A study of Mus musculus with 8 samples.

Results

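Gene bodies of at most 30000 bp on chromosomes 1 to 19 were taken from the CG tables of hippocampal whole-genome bisulfite sequencing. The choice used the feature (gene body) and the span of the location, and the methylation values of single regions did not enter it. It was not blind to the outcome, because the dependence of direction on length was known from earlier results of these data. The choice gave 672 table entries, of which 31 repeated the values of another entry, leaving 641 regions in 477 genes. They stand beside 1770 longer gene-body regions of the same chromosomes and 4871 CG entries in all. Each region was the stretch between the windows around the transcription start and end. For 575 of the 640 members with an annotated gene (89.8%), both edges lay 1000 bp inside annotated exon ends, within 20 bp, so the start and end windows were outside the members.

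DNA came from whole hippocampus, a mixture of neurons, glia and vessel cells, of 6-month-old male C57BL/6N mice. WT mice were compared with mice deficient for Mutyh (Mutyh-/-), for Ogg1 (Ogg1-/-) or for both (DKO, obtained by crossing the single knockouts). The design of the alleles is not given in the sources used here. Each of the 4 genotypes had 2 libraries, and the labels do not say whether these were separate mice, so the spread between them may be technical. The comparison asked where CG methylation differs from WT when 1 or both glycosylases are missing.

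Ogg1 removes oxidised guanine from DNA, and Mutyh removes adenine that was paired with it during replication. Both open the base excision repair pathway. Methyl groups on cytosine occur mainly at CG dinucleotides. In mammals most CGs inside gene bodies are methylated, whereas CG-dense stretches around many promoters are not.

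Levels are the deposited median scores expressed as percent methylation. The value of a library is its average over the 2 library pairs it entered, and errors are the SD over the 2 libraries of a genotype (n = 2). A region entered the tables only when all 4 pairs of a knockout and a WT library differed past the authors' threshold in 1 direction. All members therefore had a difference by selection, no region received a new test, and the number of regions tested without a call is not known. The smallest 2-sided p that an exact test of 2 libraries against 2 could give is 0.333. Read depth behind the values is unknown.

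Sequences of 4 members that carry the results below show how much the density of CG differs inside these short gene bodies. Each is the 200-bp stretch with the most CGs in the member, outside untranslated exons and repeats, read 5′ to 3′ on the strand of the gene from GRCm38 (RefSeq), with every CG in capitals. Which of these CGs entered a deposited median is not known. The Fignl2 stretch (chr15:101052734-101052933, minus strand) is wholly coding, holds 39 CGs and comes from a gene that lost methylation in all 3 knockouts. Zfp575 (chr7:24585795-24585994, minus strand, 25 CGs, coding) and Copz1 (chr15:103278981-103279180, plus strand, 6 CGs, intronic) are members that gained methylation. Hsf4 (chr8:105270827-105271026, plus strand, 17 CGs, 109 coding and 91 intronic bases) gained in one genotype and lost in another.
Fignl2: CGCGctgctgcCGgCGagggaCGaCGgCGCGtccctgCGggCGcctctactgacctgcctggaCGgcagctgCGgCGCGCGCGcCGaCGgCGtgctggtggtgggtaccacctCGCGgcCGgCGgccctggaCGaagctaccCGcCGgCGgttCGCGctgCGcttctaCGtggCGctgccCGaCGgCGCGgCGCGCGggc
Zfp575: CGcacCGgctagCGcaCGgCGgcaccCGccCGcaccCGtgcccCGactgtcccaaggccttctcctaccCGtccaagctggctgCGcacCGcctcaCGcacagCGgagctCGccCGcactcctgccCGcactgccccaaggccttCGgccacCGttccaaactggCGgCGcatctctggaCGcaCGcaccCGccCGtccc
Copz1: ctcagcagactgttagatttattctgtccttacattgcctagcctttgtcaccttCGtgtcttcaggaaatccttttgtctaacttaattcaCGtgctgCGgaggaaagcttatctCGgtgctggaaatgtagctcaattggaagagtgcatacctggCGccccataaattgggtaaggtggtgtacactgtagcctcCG
Hsf4: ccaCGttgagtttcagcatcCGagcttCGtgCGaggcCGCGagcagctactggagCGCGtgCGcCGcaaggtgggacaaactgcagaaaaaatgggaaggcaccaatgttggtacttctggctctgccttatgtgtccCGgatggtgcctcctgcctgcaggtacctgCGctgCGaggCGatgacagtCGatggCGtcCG

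Most short gene bodies with a call were hypomethylated in all 3 knockouts. Of 11262 protein-coding genes of that length, 402 had a call in any genotype (3.57%). In Mutyh-/-, 217 of 231 regions were lower than in WT and 14 higher (6.06% gains), where 43.5% of all called gene bodies of these chromosomes were gains. Ogg1-/- had 165 lower and 18 higher regions (9.84%), against 53.1% among all called gene bodies. DKO had 207 lower and 20 higher regions (8.81%), against 55.1%. Exact 95% binomial intervals of these 3 shares, which cover counting error only, were 3.35 to 9.96%, 5.93 to 15.1% and 5.46 to 13.3%. Of all 641 regions, 589 in 430 genes were losses and 52 in 51 genes were gains. The genotypes were compared with the same WT libraries, so their shares are given side by side with no test between them.

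The largest changes were losses, while the medians of the 2 directions were close in size. The threshold sets the lower end of both. The median loss was -20.5 percentage points for Mutyh-/-, -20 for Ogg1-/- and -21 for DKO. The median gain was 20.9 points for each single knockout and 21.1 for DKO. Over all members the change ranged in size from 15.5 to 51.75 points for losses and from 17 to 27.5 for gains. Changes over 25 points numbered 17 losses and 0 gains in Mutyh-/-, 3 losses and 1 gain in Ogg1-/-, and 10 losses and 2 gains in DKO. At a stricter relative ratio of 0.12 in all 4 pairs no gain was left in either single knockout, and 3 were left in DKO.

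Where the members started differed between the directions. The median loss of Mutyh-/- began at 74.5% in WT and ended at 52.8%, that of Ogg1-/- went from 70% to 50.2%, and that of DKO from 74.8% to 53.2%. The median gain began at 51%, 55% and 55.2% and ended at 71.9%, 75.4% and 79.1% in the same order. In the plot of WT against knockout levels the gains lie to the left of the losses for this reason. The score ends at 2, so a gain past the threshold was not possible from a WT level above 81%, and 65 losses of Mutyh-/-, 26 of Ogg1-/- and 69 of DKO began at 80% or more. The highest WT level of a member that gained was 78.2%.

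**Figure D1:**
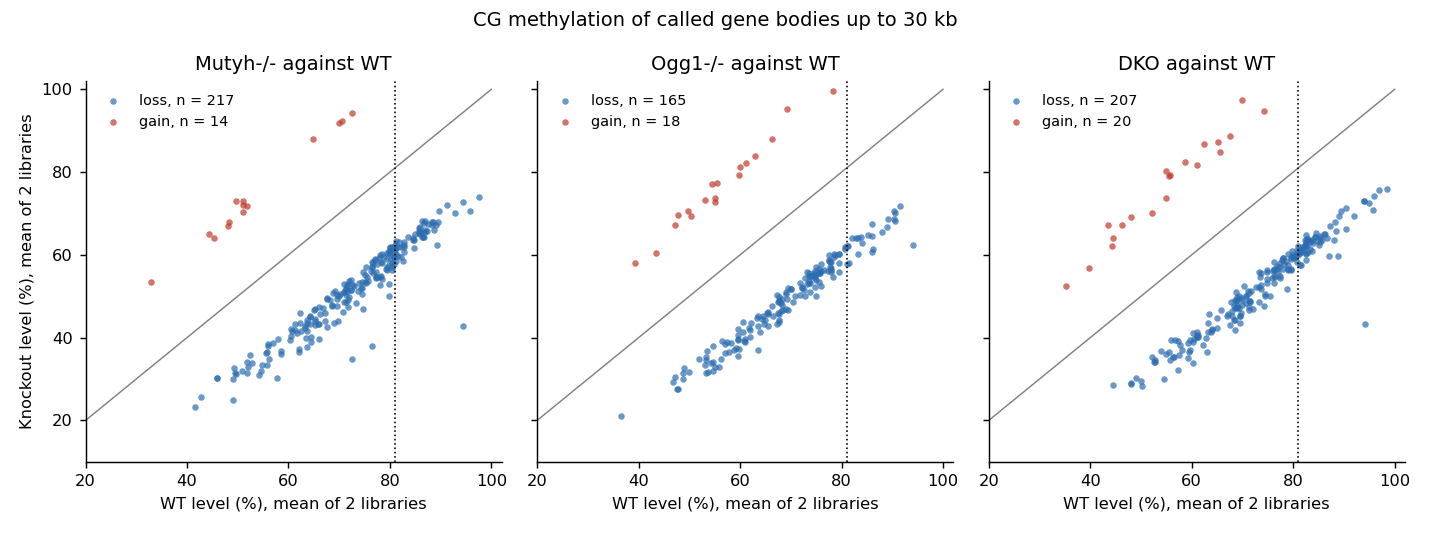
Mean methylation level of each called gene body up to 30 kb in WT (x axis, percent) and in the knockout (y axis, percent), 1 panel per genotype, with losses in blue and gains in red; the grey line marks equal levels and the dotted line the WT level of 81% above which a gain could not pass the threshold. The 14, 18 and 20 gains stand to the left of most losses, at WT levels of 78.2% or below, and the lone low points at a WT level near 94% are the Mutyh gene body in Mutyh-/- and DKO.

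The 2 libraries of a group lay closer together in losses than in gains. For losses the median SD was 2.12 points in WT in every genotype and 2.12 to 2.47 points in the knockouts. For gains it was wider, at 2.83 points in WT and 2.65 in the knockout for Mutyh-/-, 4.24 and 2.83 for Ogg1-/-, and 2.65 and 4.24 for DKO. In 639 of 641 members the 2 knockout libraries lay wholly on one side of the 2 WT libraries, which follows closely from the selection. The exceptions were losses at Lhx9, a LIM homeobox gene, and Ldb1, whose product binds LIM domains. Lhx9 measured 43 and 76% in the WT libraries and 40 and 44% in the Ogg1-/- libraries, and Ldb1 measured 72.5 and 65.5% in WT and 67 and 32.5% in DKO. The libraries of these groups overlapped, so their means differ less firmly than those of other members. Within a genotype, 34 members of Mutyh-/-, 26 of Ogg1-/- and 16 of DKO overlapped another member, always in the same direction, so that neighbouring members are not independent.

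Gains were rarer among called short gene bodies than among called longer ones in every genotype. Among regions over 30000 bp, Mutyh-/- had 346 gains of 596 (58.1%), Ogg1-/- had 345 of 501 (68.9%) and DKO had 476 of 673 (70.7%). The odds ratio of a gain in short against longer gene bodies was 0.0468 in Mutyh-/- (95% interval 0.0245 to 0.0826, Fisher's exact test, 2-sided, adjusted p = 2.65e-48). It was 0.0496 in Ogg1-/- (0.0276 to 0.0843, exact adjusted p = 2.29e-46) and 0.0402 in DKO (0.0233 to 0.0659, exact adjusted p = 6.14e-64). P-values were adjusted over the 3 genotypes. These tests, and those by length below, describe the lists, because regions share libraries and reads and are not replicates. Their p-values do not measure the spread between libraries. The dependence of direction on length was known from earlier results of these data, so the tests restate it and are not separate support.

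Below 30000 bp the share of gains stayed low at every length. In regions up to 5000 bp it was 7.59% for Mutyh-/-, 8.93% for Ogg1-/- and 8.33% for DKO, and from 5000 to 10000 bp it was 1.54, 7.84 and 1.82%. From 10000 to 20000 bp the shares were 7.14, 6.98 and 12.3%, and from 20000 to 30000 bp they were 9.68, 18.2 and 14.0%. Only from 30000 to 100000 bp did they exceed 17% in every genotype, with 17.8, 30.4 and 31.3%, and above 300000 bp they were 93.9, 95.5 and 95.3%. The share thus rose gradually across the limit of 30000 bp. For a test against longer regions of 30000 to 100000 bp alone, repeats were dropped after that limit was set, so the longer regions differ slightly from those behind the shares just given. They were 35 gains and 158 losses in Mutyh-/-, 35 and 79 in Ogg1-/-, and 58 and 126 in DKO. The odds ratios were nearer to 1, at 0.292 in Mutyh-/- (exact adjusted p = 0.000117), 0.248 in Ogg1-/- (exact adjusted p = 1.3e-05) and 0.211 in DKO (exact adjusted p = 1.72e-08).

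**Figure D2:**
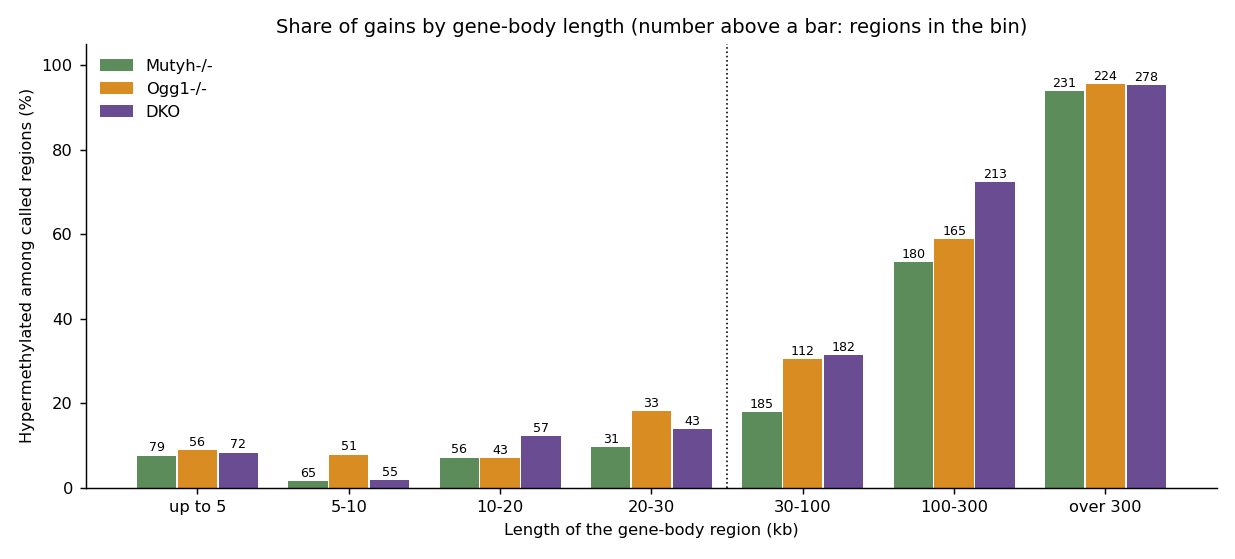
Share of hypermethylated regions (y axis, percent) among called gene bodies by length of the region (x axis, kb), with 1 bar per genotype and the number of regions above each bar; the dotted line marks 30 kb. Every bar left of the line is at 18.2% or below, and the bars over 300 kb are at 93.9% or above.

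The difference between short and longer gene bodies was also present among regions of equal WT level, where both directions could be called. From 60 to 70% in WT, 1 of 51 short regions was a gain in Mutyh-/- against 164 of 184 longer ones. For Ogg1-/- the counts were 5 of 50 against 174 of 198, and for DKO 5 of 52 against 230 of 243. Below 50% in WT gains were most frequent among the short regions, with 6 of 15, 5 of 13 and 7 of 11, against 21 of 23, 29 of 31 and 36 of 39 longer ones. Stratified over the 4 levels below 80%, the odds ratio of a gain was 0.0157 in Mutyh-/- (95% interval 0.00666 to 0.0333, exact Mantel-Haenszel test, 2-sided, adjusted p = 5.74e-52). In Ogg1-/- it was 0.0204 (0.00975 to 0.0397, exact adjusted p = 7.06e-52) and in DKO 0.0124 (0.00592 to 0.0243, exact adjusted p = 4.79e-70).

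The members nearest to the limit were on both sides of it mainly losses. Just inside it, Lmo1, a LIM-only transcriptional cofactor of 29955 bp, fell by 18.75 points in Mutyh-/-, Cxxc5, a CXXC zinc finger gene of 29871 bp, fell by 18.5 points in DKO, and Dhx9, at 29903 bp, was a gain. Just outside it, Cnpy1 in DKO (30411 bp), the vomeronasal receptor gene Vmn2r99 in Mutyh-/- (30456 bp) and the myelin regulator Myrf in Mutyh-/- (30478 bp) were losses.

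The base composition of the 2 directions differed in these members. Losses had a median of 1.89 CGs per 100 bp and gains 1.15, beside 1.19 in 11262 protein-coding genes of the same length range in RefSeq, trimmed in the same way. The quartiles of losses were 1.36 and 2.53 CGs per 100 bp, and those of gains 0.920 and 1.89. GC content had a median of 52.4% in losses, 45.8% in gains and 46.8% in those genes. By genotype the gains of Mutyh-/- were the richest in CG, at a median of 1.57, against 1.04 in Ogg1-/- and 1.10 in DKO. Gains were also longer, with a median of 12298 bp against 7477 bp for losses. Called regions over 30000 bp were poorer in CG than short ones of the same direction, with medians of 1.02, 1.06 and 0.99 per 100 bp for losses and 0.69, 0.69 and 0.70 for gains in Mutyh-/-, Ogg1-/- and DKO. No test was made of these differences, and which cytosines the authors' tool kept in each region is not known.

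The Mutyh gene body itself had the largest change of any member. The region (chromosome 4, 116808734 to 116818431) measured 94.5% in both WT libraries and 40 and 45.5% in the Mutyh-/- libraries, a fall of 51.75 points. In the DKO table the WT libraries measured 93.5 and 95% and the DKO libraries 46.5 and 40%, a fall of 51 points. No other member changed by more than Trnp1, which fell by 38.5 points in Mutyh-/-. Mutyh is the gene that both genotypes lack, and Ogg1-/- had no member there. Ogg1 had no short gene-body region in any genotype. Within 5 Mb of Mutyh, the gene itself included, Mutyh-/- had 3 members, Ogg1-/- had 1 and DKO had 5. All were losses, as were 589 of all 641 members. The short genes of that window without a call were not counted, so these numbers show no excess near Mutyh.

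After Mutyh, the losses of Mutyh-/- were led by Trnp1, which encodes a nuclear protein of neural stem cells. Its libraries measured 74 and 79% in WT and 37.5 and 38.5% in Mutyh-/-, and no Trnp1 region was called in the other knockouts. The size of the Trnp1 change depended on the library pair, at -47 points without WT replicate 1 and -30 without WT replicate 2. Fev, the transcription factor gene of serotonergic neurons, measured 65 and 50.5% in WT and 29 and 31.5% in Mutyh-/-. Rnf167, which encodes a membrane-bound ubiquitin ligase, fell from 74.8 ± 5.30% to 47 ± 1.41%. All 4 knockout values of Trnp1 and Fev lay below both WT values of the gene, but the WT libraries of Fev had an SD of 10.3 points. The Fev change was -18.5 points without WT replicate 1 and -36.5 without WT replicate 2. Lrriq4 fell from 79.8 ± 0.35% to 50 ± 14.1%, with 40% in one Mutyh-/- library and 60% in the other. Lrrc61 and Ccdc70 each fell by 26.75 points. Zbtb18, a transcriptional repressor of the zinc finger family, was the last of the 8 largest losses. These leave out predicted genes such as A730090H04Rik, where the level fell by 37.75 points.

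In Ogg1-/- no named gene fell by more than 26.5 points, and the predicted gene Gm7444 fell by 31.5. Mamstr, a coactivator of the muscle regulator MEF2, measured 65 and 62% in WT and 34.5 and 39.5% in Ogg1-/-, a fall of 26.5 points. The same location fell by 22.25 points in DKO, from 62.5 and 65.5% in WT to 48.5 and 35%. A WT library of Mamstr differed by 30 points between its 2 pairs in the Ogg1-/- table, and one of Srrm2 by 31. Crip2, a LIM-domain protein gene, measured 86.5 and 86% in WT and 67 and 56% in Ogg1-/-. Srrm2, a scaffold of splicing speckles, fell from 75 ± 13.4% to 50 ± 19.1%, and its libraries spread the most among these genes, at 84.5 and 65.5% in WT and 63.5 and 36.5% in Ogg1-/-. Nags, which makes the activator of the urea cycle, measured 69 and 50% in WT against 36.5 and 34.5% in Ogg1-/-. Cracr2b, a regulator of store-operated calcium entry, fell from 67.2 ± 1.06% to 43.2 ± 1.77%, and Erf, an ETS-family repressor, from 79.5 ± 1.41% to 55.8 ± 6.01%. The pseudogene listed as Atp6v0c ps2 fell by 25.25 points. Its symbol found no match in RefSeq, and reads of a pseudogene can be hard to tell from its parent gene.

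Losses of DKO after Mutyh were led by Emp3, a small membrane protein gene, which measured 88.5 and 89% in WT and 57.5 and 62% in DKO. Rpl18, a protein of the large ribosomal subunit, measured 88 and 86% in WT and 57 and 62.5% in DKO, and its 765-bp region also fell in Mutyh-/-, from 87.5 and 84.5% to 66 and 64%. Both genes began above 81%, where a gain could not have been called. Prss16, a serine protease gene of thymic epithelium, measured 68.5% in both WT libraries and 38.5 and 45% in DKO. Pdzd3, a PDZ scaffold gene, fell by 26.5 points in DKO and also fell by 24 points in Mutyh-/-. Slc35e4, of the nucleotide-sugar transporter family, fell from 78.8 ± 1.06% to 51.8 ± 8.84%, and Prss56, a serine protease gene known from eye growth, from 63 ± 2.12% to 36.5 ± 6.36%. Hsf4, the eighth, was a gain in Mutyh-/- and is described with the genes of opposite direction.

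Some gene bodies were lower than WT in each of the 3 knockouts, and none was higher in each. Gains numbered 14, 18 and 20 in Mutyh-/-, Ogg1-/- and DKO, against 217, 165 and 207 losses. With so few gains this shows no contrast between the directions. Because the WT libraries are the same, a low or high WT value alone enters all 3 comparisons, and the values are set side by side only. Fignl2, a member of the AAA ATPase family related to microtubule severing enzymes, had the largest mean change among the genes lower in all 3. In Mutyh-/- it fell from 62 ± 0.71% to 37.2 ± 3.18%. In Ogg1-/- it fell from 64 ± 0.71% to 41.2 ± 3.18%, and in DKO from 67.5 ± 2.12% to 43 ± 0.71%. Its 2208-bp region is the most CG-dense of the members printed above, with 6.07 CGs per 100 bp. Gpc2, a glypican of developing neurons, changed by -22.25 points in Mutyh-/-, by -24 in Ogg1-/- and by -24.75 in DKO. Zbtb18 changed by -26.25 points in Mutyh-/- and by -22 in DKO over a region of 4104 bp, and by -21.5 in Ogg1-/- over one of 2944 bp.

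Synpo2l, a cytoskeletal gene of striated muscle, changed by -21.75, -23.5 and -22.75 points in the same order. Ncdn, whose product neurochondrin acts in neurite outgrowth, changed by -22.75, -22 and -21.5 points. Hic1, a transcriptional repressor and tumour suppressor, changed by -21.5, -22.75 and -21.75 points, with WT SDs of 5.30, 4.60 and 7.78 points. Slc48a1, a haem transporter, changed by -22.75, -19.75 and -23 points, and Tmem151b, a membrane protein gene, by -21, -20 and -24.25 points. Further genes with a loss in all 3 knockouts included the retinoic acid receptor gene Rara, the kinase gene Mapk3 (ERK1), the tubulin gene Tubb5, the matrix protease gene Mmp9, the TGF-beta inhibitor gene Smad7 and the forebrain homeobox gene Lhx2.

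**Figure D3:**
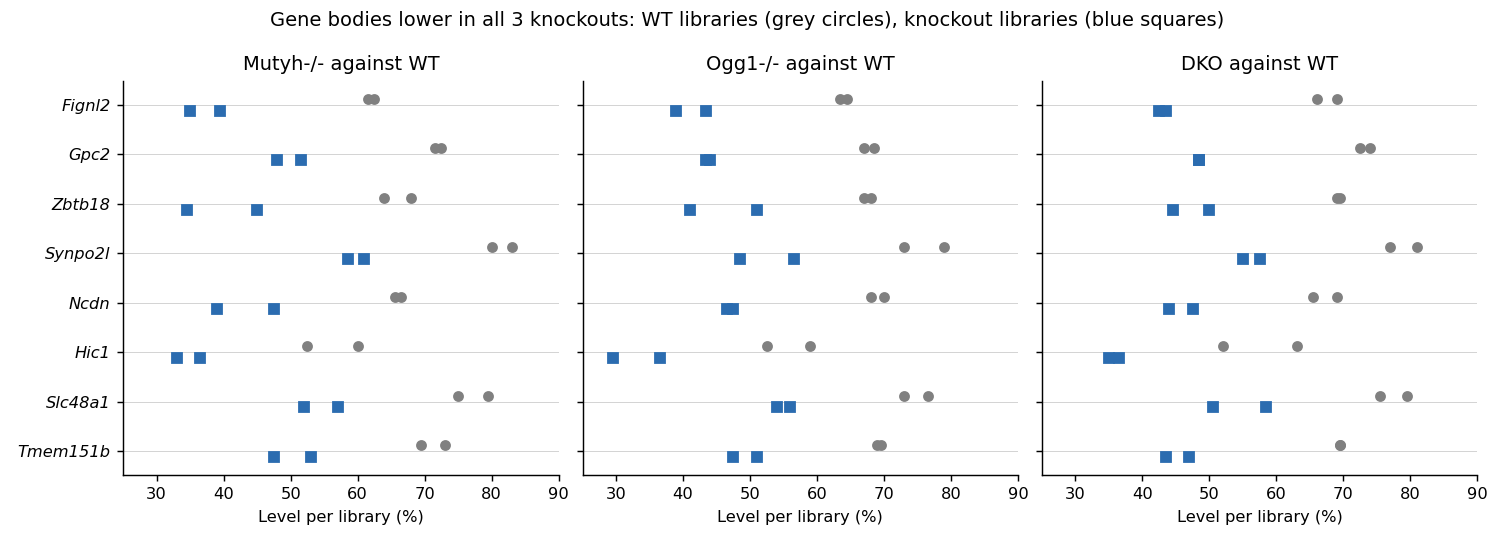
Methylation level per library (x axis, percent) of the 8 gene bodies with the largest mean change among those called in all 3 knockouts (y axis), with WT libraries as grey circles and knockout libraries as blue squares, 1 panel per genotype table. In every row both knockout libraries lie below both WT libraries, with changes from -26.25 to -19.75 points.

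The rare gains of Mutyh-/- comprised 14 regions, of which 12 were in named genes and 2 in RIKEN transcripts. Znrd1, a subunit of RNA polymerase I, measured 62 and 67.5% in WT and 93 and 83% in Mutyh-/-. A WT library of Znrd1 differed by 24 points between its 2 pairs, the widest such shift among the gains of this genotype. Zfp575, a zinc finger gene, measured 51.5 and 50.5% in WT and 75 and 71% in Mutyh-/-. Dhx9, an RNA helicase, measured 68 and 73% in WT and 94.5 and 90% in Mutyh-/-. Rpusd3, which acts in RNA modification in mitochondria, rose from 72.5 ± 2.83% to 94.2 ± 5.30%, and the C-type lectin gene Clec4g from 70 ± 2.12% to 91.8 ± 3.18%. These last 3 genes ended above 91% and had little room left on the scale. Rpusd3 was the single member of Mutyh-/- within 5 Mb of Ogg1.

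Other gains of Mutyh-/- began at a mean of 51.75% or less. Mmd, a membrane receptor-like gene, measured 49.5 and 52.5% in WT and 71 and 73% in Mutyh-/-. Nr2f2, the nuclear receptor COUP-TFII of interneuron and vessel development, had the lowest WT level of all gains, at 36 and 30% in WT and 55 and 52% in Mutyh-/-. With 428 CGs in 12797 bp it was also among the CG-rich gains. Rapgefl1 rose from 48.2 ± 2.47% to 68 ± 1.41%. Trim41, a ubiquitin ligase gene, rose from 51 ± 13.4% to 70.2 ± 3.18%, with 41.5 and 60.5% in the WT libraries.

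Ogg1-/- had 18 gains, 1 of them in a RIKEN transcript. The largest was at Duxbl3, a double homeobox gene, which measured 67 and 71.5% in WT and 100 and 90.5% in Ogg1-/-. The same values were listed under its near-identical copy Duxbl1, so reads may be divided between copies and this gain is uncertain. Ccl24, an eosinophil-attracting chemokine gene, measured 54.5% in both WT libraries and 80.5 and 73.5% in Ogg1-/-. Cops4, a subunit of the COP9 signalosome, measured 45.5 and 50% in WT and 67 and 72.5% in Ogg1-/-. Aif1, the gene of the microglial marker Iba1, measured 52.5 and 58.5% in WT and 75.5 and 79% in Ogg1-/-. No other microglia marker on the list (Cx3cr1, P2ry12, Tmem119, Csf1r, C1qa, C1qb, Trem2) had a short gene-body region in any genotype, and whether the share of microglia differed was not tested.

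Proc, which encodes the anticoagulant protein C, rose at the same location in Ogg1-/- and DKO, from 62 and 58% to 83.5 and 79% and from 63.5 and 58.5% to 81.5 and 82%. It was the single gene with a gain in more than 1 knockout. Mrpl28, of the mitochondrial ribosome, reached the top of the scale, from 79 and 77.5% in WT to 100 and 99% in Ogg1-/-. Sod3, the extracellular superoxide dismutase, rose from 49.8 ± 6.01% to 70.5 ± 2.12%, and the homeobox gene Msx2 from 50.2 ± 4.60% to 69.5 ± 3.54%. Wdr75, a ribosome biogenesis factor, and Ssmem1 rose by 21 points each. Vstm2a rose from 47.2 ± 23.0% to 67.2 ± 0.35%, and its WT libraries measured 63.5 and 31%, so that its change of 20 points is less than the WT SD although both Ogg1-/- libraries lay above both WT libraries.

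DKO had 20 gains, 2 of them in RIKEN transcripts, and the largest gain of any member. Copz1, a subunit of the COPI vesicle coat, measured 67.5 and 72.5% in WT and 95 and 100% in DKO. Ccdc36, required for double-strand breaks in meiosis, measured 57.5 and 52.5% in WT and 84.5 and 76% in DKO. Hs3st1, a heparan sulfate sulfotransferase, measured 60.5 and 64.5% in WT and 93 and 80.5% in DKO. Dntt, the template-independent polymerase of lymphocytes, rose from 58.8 ± 2.47% to 82.5 ± 2.83%. Foxi2, a forkhead factor gene, had a close pair of libraries in each group, at 55 and 56% in WT and 80 and 78% in DKO, over a region of 1249 bp with 26 CGs. Rbm12, an RNA-binding protein gene, rose by 22 points, and Clec1a, a C-type lectin gene, by 21.25 points.

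Other gains of DKO were smaller and lay in genes of various kinds. Nptx1, a secreted pentraxin that clusters AMPA receptors, rose from 52.2 ± 1.06% to 70 ± 1.41%. Zic4, a cerebellar developmental factor, rose from 46.2 ± 6.72% to 67.2 ± 6.01%, but its values depended on the pair more than those of any other gain, with shifts of up to 29 points in a WT library and 40 in a DKO library. Dpf1, a subunit of the neuronal BAF chromatin remodelling complex, rose from 35.2 ± 5.30% to 52.5 ± 12.0%, and Sgk1, a glucocorticoid-induced kinase, from 44.5 ± 7.78% to 64 ± 4.95%. Wnt10a, a Wnt ligand gene, rose by 17 points in its gene body while its transcription end region was called a loss. It was the single gain with a called region at the start or end of the same gene in the same genotype.

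**Figure D4:**
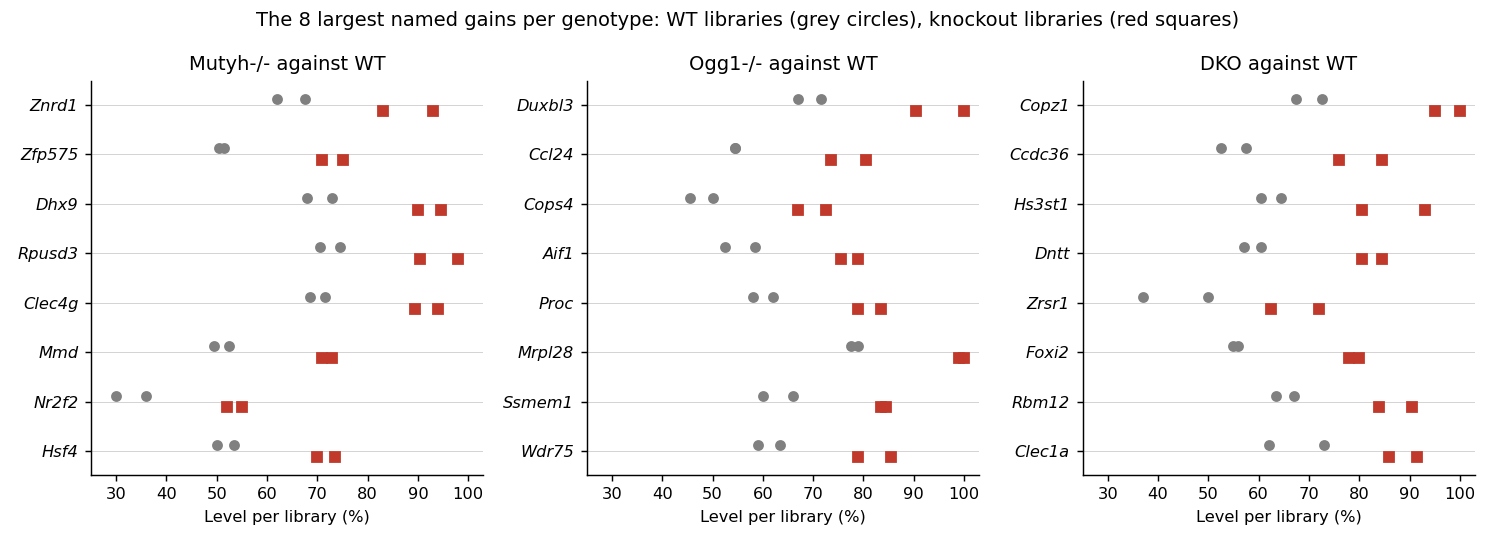
Methylation level per library (x axis, percent) of the 8 largest gains in named genes for each genotype (y axis), with WT libraries as grey circles and knockout libraries as red squares. Both knockout libraries lie to the right of both WT libraries in every row, and several, such as Mrpl28 and Copz1, reach 95% or more.

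Of the genes called in 2 or more genotypes, 4 had opposite directions. Hsf4, a heat shock factor known from lens development, measured 53.5 and 50% in WT and 73.5 and 70% in Mutyh-/-. At the same location in the DKO table it measured 69 and 70% in WT and 41.5 and 45.5% in DKO. Tmem151a measured 50 and 46% in WT and 67% in both Mutyh-/- libraries, whereas in the Ogg1-/- table the same location measured 69.5 and 61.5% in WT and 44.5 and 48% in Ogg1-/-. Nkain4, which encodes a partner of the sodium pump, measured 47 and 40% in WT and 64 and 57% in Ogg1-/-, but 100 and 94% in WT and 75 and 76.5% in DKO. The same WT libraries thus had very different values at one location in 2 tables, by up to 54 points at Nkain4. These opposite directions come with a different WT value and not only with a different knockout value.

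Olfm1, a secreted olfactomedin of neurons, was called over overlapping but different transcripts. Its 19339-bp region rose in Mutyh-/- from 45.2 ± 6.72% to 64 ± 6.36%, and its 23048-bp region fell in Ogg1-/- from 69.5 ± 1.41% to 52 ± 0.71%. Elsewhere the WT libraries kept closer values between tables. At the 57 locations shared by the Mutyh-/- and Ogg1-/- tables the median difference was 1.5 and 2 points for the 2 WT libraries. Between the Mutyh-/- and DKO tables it was 2.5 and 2 points at 59 locations, and between the Ogg1-/- and DKO tables it was 2 and 2.5 points at 41. The largest differences were at Tmem151a, Hsf4 and Nkain4.

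**Figure D5:**
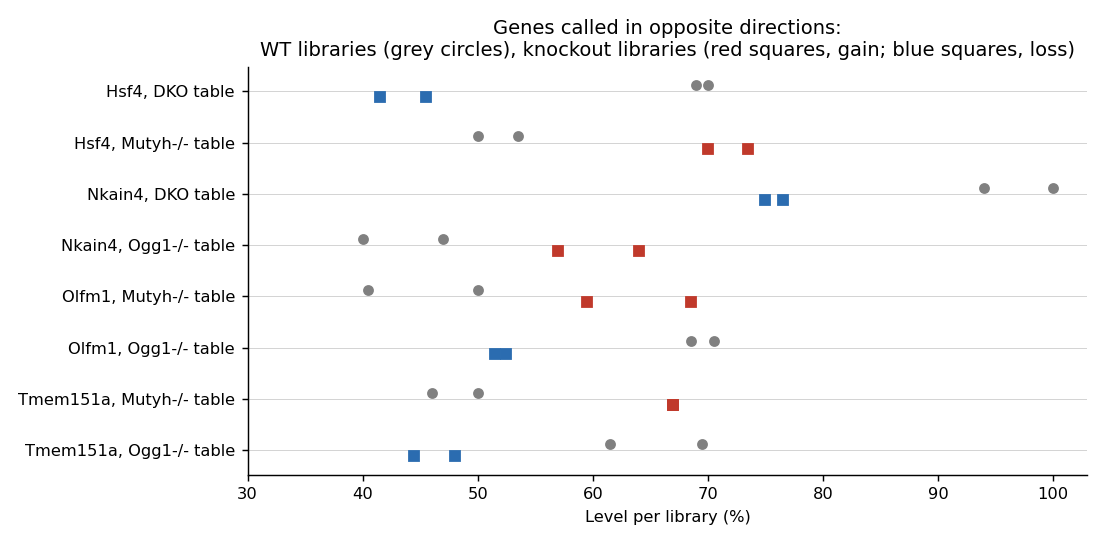
Methylation level per library (x axis, percent) of the 4 genes called in opposite directions, 1 row per genotype table, with WT libraries as grey circles and knockout libraries as red (gain) or blue (loss) squares. The grey WT circles of a gene shift between its 2 rows, most at Nkain4 (47 and 40% against 100 and 94%).

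Developmental transcription factors were the curated gene list with the most members. Of 111 such genes up to 30 kb, 13 had a region in any genotype (11.7%), beside 3.57% of all protein-coding genes of that length. Mutyh-/- had losses in 6 of them, Ogg1-/- had losses in 7 and a gain at Msx2, and DKO had losses in 4 and a gain at Zic4. The median change of the regions on the list was -19, -17.4 and -17.8 points, against -20.4, -19.8 and -20.8 for all protein-coding members. The threshold is a ratio, so fewer points suffice for a call where the WT level is lower, and WT levels were not matched here. For every list and family here and below, genes up to 30 kb include any gene with a called short region, even where its annotated body is longer. The 11262 genes behind the 3.57% were chosen by annotated length and are protein-coding, limits the lists did not have. The shares of the lists may therefore be too high beside it. Emx1, a homeobox gene of the dorsal forebrain, fell from 69.5 ± 2.12% to 47.8 ± 6.01% in Mutyh-/- and from 68 ± 1.41% to 48.2 ± 6.72% in Ogg1-/-. Pax6, a regulator of radial glia, was called in Ogg1-/- over 3 overlapping transcripts, with changes of -16.75 to -17.25 points. Tbr1, a cortical projection neuron factor, fell from 63.5 ± 1.41% to 45.8 ± 6.01% in DKO, and Nkx2-2 changed by -18.5 points in Mutyh-/- and by -17.5 in Ogg1-/-.

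The genes of the presynaptic and postsynaptic lists that had a region were losses, as were 589 of all 641 members, and Nptx1, on neither list, was a gain. Of 17 presynaptic genes up to 30 kb, 4 had a region (23.5%, beside 3.57% of all protein-coding genes of that length), namely Cplx1 in Mutyh-/- (from 82.8 ± 4.60% to 62 ± 1.41%) and Ogg1-/- (from 84 ± 6.36% to 62.8 ± 0.35%), Rab3a in Ogg1-/-, and Vamp1 and Cplx2 in DKO. Complexins clamp and trigger vesicle fusion, Rab3a tethers vesicles and Vamp1 is part of the fusion machinery. On the list of 13 postsynaptic and receptor genes Grin1, the obligatory NMDA receptor subunit, was the single member (7.69%), with a change of -18.5 points in Mutyh-/- and -20.5 in DKO. The SD of the knockout libraries was 12.4 points in the first and 1.06 in the second. Of 20 immediate early genes 2 had a region (10%). Btg2 fell from 69.8 ± 1.77% to 44 ± 2.12% and the neuronal activity factor Npas4 from 79.5 ± 3.54% to 57 ± 2.83%, both in Mutyh-/-. None of 35 neuropeptide and receptor genes had a region.

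Imprinted genes, which are methylated on the allele of one parent, had a region in 7 of 22 genes up to 30 kb (31.8%, beside 3.57% of all protein-coding genes). A gene with a longer annotated body entered the 22 only through a call, and the list was not limited to protein-coding genes. The 31.8% may therefore be too high, and the difference was not tested. Dlk1, expressed from the paternal allele, fell from 75.5 ± 0.71% to 50 ± 0% in DKO over 8514 bp and from 72.5 ± 0.71% to 51.5 ± 2.12% in Ogg1-/- over 7882 bp. Losses were also called at Peg13 and Nespas in Mutyh-/-, at Nnat in Ogg1-/- and at Igf2 and Gnas in DKO. Zrsr1, a splicing factor gene expressed from the paternal allele, was the single gain on the list, where gains were 52 of all 641 members, at 50 and 37% in WT and 72 and 62.5% in DKO. Igf2 fell from 60.5 ± 0% to 39.8 ± 9.55%.

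Among markers of hippocampal cell types, only oligodendrocyte and microglia genes had a region. Of 7 oligodendrocyte markers, Mobp changed by -18 points in Mutyh-/- and Sox10 by -18.75 in DKO (28.6% of the list). Of 7 microglia markers Aif1 alone had one (14.3%). The share of all protein-coding genes of that length was 3.57%, and lists of 7 genes are too short to compare with it. None of 2 neuron markers, 4 astrocyte markers and 3 vessel and choroid plexus markers of that length had a region. Base excision repair had Mutyh alone of 19 genes (5.26%). DNA methylation and demethylation genes had 0 of 4, glycolysis genes 0 of 12, and chemokine, cytokine and complement genes 0 of 45, a list that did not hold Ccl24.

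Gene families defined by symbol are read beside the 3.57% of all protein-coding genes with a region and the 589 losses among 641 members. Solute carriers had 10 of 201 genes (4.98%), near that share and all losses, among them Slc2a1, the GLUT1 glucose transporter of the blood-brain barrier, which fell by 20 points in Ogg1-/-. Zinc finger genes had 9 of 387 (2.33%), with losses in all but Zfp575. Ribosomal protein genes had 5 of 132, with losses at Rpl18, Rpl13a, Rpl35 and Rpl6 and the gain at Mrpl28, Gpr receptors 5 of 39, RAB GTPases 2 of 40 and potassium channels 1 of 43 (Kcnj9, which fell by 20.75 points in DKO). No region was called in 263 olfactory, vomeronasal and taste receptor genes, 9 histone genes, 55 keratin genes, 23 clustered protocadherins, 81 respiratory chain genes, 10 collagens or 12 microRNA and small nucleolar RNA genes of that length. Predicted and RIKEN genes had 48 of 10505. Since the tables hold no region that was tested without a call, a gene without a region may not have been tested.

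Some members also had a called region at the start or end of the same gene, mostly in the same direction. The share of all genes with such a call, and the directions of those calls, were not counted. These numbers therefore show no link between the regions of a gene. Of the losses in Mutyh-/-, 11 of 217 had a called loss at the transcription start and 11 at the end, and 1 had a gain at the end. For the 165 losses of Ogg1-/- there were 9 losses at the start and 3 at the end, with 1 gain at each. For the 207 losses of DKO there were 6 losses at each, with 1 gain at each. Fignl2 in Mutyh-/- and Hic1 in Ogg1-/- and DKO were among those with a loss at the start as well. Tbkbp1 in Ogg1-/- and Tbc1d24 in DKO had a loss in the body and a gain at the start. Methylation outside CG dinucleotides, in the CHH context, was also called lower in the body of a few genes with a loss. Mutyh-/- had 7 such members among its 217 losses. For the 165 losses of Ogg1-/- the number was 9, with Pax6, Tbx1 and Fgf8 among them. DKO had 0 among its 207 losses. None of the 52 gains had a CHH call. Because CHH calls were this rare among losses, their absence among so few gains shows no contrast between the directions. How many of all genes had a CHH call was not counted.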

How the data were processed

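Hippocampal DNA was bisulfite converted and sequenced. The submitters' processing notes name FastQC, Bismark 0.22.3 and the build GRCm38. Cytosines covered by fewer than 4 reads had been left out by the authors, who called regions with HMST-Seq-Analyzer (at least 5 sites in a gene body, at most 200 bp apart, Wilcoxon test per library pair), keeping those past a relative ratio of 0.1 in all 4 pairs. The deposited medians are a score from 1 to 2, read as 1 plus the methylated fraction. Another 8 columns per CG table hold the authors' relative ratios and p-values and were not used. CHG tables were not used, and CHH tables only to find calls in the same genes. Starts were written 1-based. Entries of one genotype with identical medians were counted once. Of 478 symbols, 460 matched RefSeq directly, 15 by synonym, 1 after a separator and 1 after a date was restored, and 1 stayed unmatched. Gain shares were compared with Fisher's exact test and the exact Mantel-Haenszel test (R 4.3.3), with Benjamini-Hochberg adjustment over 3 genotypes. Only the Mantel-Haenszel test was tried on simulated counts, in strata of the DKO sizes. Those counts were drawn independently, whereas the regions share libraries and reads, so that dependence was not covered. Named genes were the 8 largest losses and 8 largest gains per genotype outside predicted, RIKEN, clone and small RNA genes, the 8 largest called in all 3 genotypes, genes of opposite direction, Mutyh and Ogg1, up to 3 per gene list and the regions nearest to 30000 bp. Any other gene named was chosen after its values were seen. The members and the 30 gene lists and families were chosen with earlier results of these data known. One gene list and the other extracted sequences are not reported here.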

Additional observations from a re-analysis of the deposited data

Results flagged for a closer look

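Genes whose libraries moved in opposite directions in 2 knockouts were singled out. The difference between the genotypes was not tested. Hsf4 changed by 20 percentage points in Mutyh-/- and by -26 in DKO. Nkain4 changed by 17 points in Ogg1-/- and by -21.25 in DKO. Olfm1 changed by 18.75 points in Mutyh-/- and by -17.5 in Ogg1-/-, over transcripts of different extent. Tmem151a changed by 19 points in Mutyh-/- and by -19.25 in Ogg1-/-. At Hsf4, Nkain4 and Tmem151a the location was the same in both tables while the WT libraries had other values, and the part of this in the opposite calls was not tested.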

How the results depend on the processing

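No alternative reversed a direction. For single regions this follows from the selection, because all 4 pairs had to differ in the same direction. Of 660 alternatives for the named regions, 71 moved the change by more than 1 SD (WT and knockout SDs combined). With a relative ratio beyond 0.12 in all 4 pairs, 40 regions were left in Mutyh-/-, 22 in Ogg1-/- and 51 in DKO, with gains at 0% in Mutyh-/- and Ogg1-/-. Beyond 0.15 the counts were 4, 0 and 3, with gains at 0% in Mutyh-/- and DKO, and the odds ratio in DKO was 0 (exact adjusted p = 0.75, from 3 short regions and 1 longer one). No odds ratio could be computed there for Mutyh-/- and Ogg1-/-, nor a stratified one for any genotype. Most members thus lie just past the threshold. Restricted to regions below 80% in both WT libraries, 149 regions were left in Mutyh-/- and 143 in DKO, and the share of gains in DKO was 14.0%. Every other odds ratio of the comparisons of length kept its direction and its side of the threshold, under each counting unit, length limit, choice of chromosomes and gene types. Without 1 library the median loss ranged from -20.5 to -20 points in Mutyh-/-, -20 to -19.5 in Ogg1-/- and -21.5 to -20.5 in DKO, and the median gain from 20.2 to 21, 20 to 20.8 and 19.8 to 21.8. No paired analysis was possible because the tests count regions already called over all 4 library pairs and hold no term for a replicate. Read depth per region is unknown, and only called regions could be counted.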
